A study of Homo sapiens with 8 samples.

Results

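The genes described here build the early secretory pathway and the SNARE machinery of membrane fusion. They are the 85 of 18388 genes whose symbol begins with SEC, STX, STXBP, VAMP, SNAP2 or TMED before a digit, with COPA, COPB, COPE, COPG or COPZ, or with GOSR, BET1 or VTI1. U-2OS Tet-ON cells, a human osteosarcoma line that carries a tetracycline-regulated transactivator, were transfected with 50 nM of control siRNA (siControl) or a pool of siRNAs against CGGBP1 (siCGGBP1) for 72 h. CGGBP1 is a DNA-binding protein with a preference for CGG repeats. SLAM-Seq was then performed after a 60 min pulse with 75 µM 4-thiouridine (4sU) in 3 replicates of each group, with a single siControl library each for 0 and 200 µM 4sU. Every library carries DMSO in its name, so that siControl and siCGGBP1 share it. The study counts its replicates as biological, without saying whether each was a separate culture, and p-values measure the spread between these libraries.

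Proteins for secretion enter the endoplasmic reticulum (ER) through the SEC61 translocon and leave it in COPII-coated vesicles. COPI-coated vesicles return escaped ER residents from the Golgi, and p24 (TMED) proteins select cargo in both directions. Fusion is driven by SNARE proteins, in which an R-SNARE such as SEC22B or a VAMP on one membrane zips with Q-SNAREs such as the syntaxins on the other, while syntaxin-binding proteins control the assembly. SEC22B acts between ER and Golgi, with STX5, GOSR2 and BET1 in forward transport and with STX18 in return to the ER.

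In SLAM-Seq, 4sU taken up by RNA during the pulse is alkylated by iodoacetamide and then read as C in place of T. From these T-to-C conversions GRAND-SLAM estimates the new-to-total ratio, the share of a gene's reads that is new, and new reads are given here as reads times that ratio. The libraries hold reads from transcript 3′ ends, so that read counts do not grow with transcript length. Depth ranged from 10127519 to 19011714 reads per library. Of the 85 genes, 71 reached 100 reads in at least 3 of the 6 libraries and were tested among 10138 such genes in all. The other 14 included VAMP4, VAMP5, VAMP8, STX1A, STX11, STXBP5L, SEC31B, SEC14L5, SEC14L6, TMED6, the antisense gene SEC23A-AS1 and the read-through genes TMED7-TICAM2 and STX16-NPEPL1. SEC14-like genes match by symbol only and encode lipid-binding proteins. CGGBP1 itself averaged 1075 ± 177 normalized reads with siControl and 231 ± 124 with siCGGBP1 (SD, n = 3 each). On the log2 scale it fell by 2.22 ± 0.39 (SE, edgeR adjusted p = 0.0138). Of the mesenchymal markers, VIM, COL1A1, SPARC and RUNX2 were present in all 6 libraries, while CDH1 and PECAM1 were at 0 and PTPRC was at 0 to 8 normalized reads. COL1A2 of the mesenchymal list and KRT5 of the list for other cell types were not found among the genes measured. EPCAM was listed at 53.2 to 94.4 normalized reads in siControl and 78.3 to 152 in siCGGBP1.

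Since CGGBP1 prefers CGG repeats, the promoters of the SEC22 family and of the pair with the lowest total RNA p-values are shown first. They are the 250 bases before the RefSeq start site (GRCh38.p14), read 5′ to 3′ on the gene's strand, with each CGG on either strand in capitals (CGG or CCG, which overlap in CCGG and are then both counted). The windows lie at chr1:120176521-120176770 (minus strand) for SEC22B, chr3:123201693-123201942 (plus strand) for SEC22A, chr3:42601079-42601328 (minus strand) for SEC22C, chr1:7771046-7771295 (plus strand) for VAMP3 and chr10:12129391-12129640 (plus strand) for SEC61A2.
SEC22B promoter: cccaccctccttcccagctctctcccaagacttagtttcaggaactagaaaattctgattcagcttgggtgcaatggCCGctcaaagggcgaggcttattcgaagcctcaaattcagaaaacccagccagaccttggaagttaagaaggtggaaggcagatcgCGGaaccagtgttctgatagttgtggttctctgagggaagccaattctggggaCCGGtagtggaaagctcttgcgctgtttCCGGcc
SEC22A promoter: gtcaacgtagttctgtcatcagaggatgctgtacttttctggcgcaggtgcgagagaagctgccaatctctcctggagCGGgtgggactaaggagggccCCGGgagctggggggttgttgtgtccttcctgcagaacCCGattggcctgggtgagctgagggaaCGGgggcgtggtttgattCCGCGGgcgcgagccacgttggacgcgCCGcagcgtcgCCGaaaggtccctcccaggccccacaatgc
SEC22C promoter: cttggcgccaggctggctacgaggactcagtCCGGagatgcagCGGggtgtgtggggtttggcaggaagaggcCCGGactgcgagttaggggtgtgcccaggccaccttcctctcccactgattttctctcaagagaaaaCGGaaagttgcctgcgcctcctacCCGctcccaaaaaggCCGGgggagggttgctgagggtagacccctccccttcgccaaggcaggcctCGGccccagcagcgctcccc
VAMP3 promoter: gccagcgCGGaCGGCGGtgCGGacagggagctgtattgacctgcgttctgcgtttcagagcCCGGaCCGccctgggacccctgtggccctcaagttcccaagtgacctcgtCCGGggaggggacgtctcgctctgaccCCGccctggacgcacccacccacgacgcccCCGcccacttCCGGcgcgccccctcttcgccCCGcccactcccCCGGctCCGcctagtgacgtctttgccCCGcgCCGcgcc
SEC61A2 promoter: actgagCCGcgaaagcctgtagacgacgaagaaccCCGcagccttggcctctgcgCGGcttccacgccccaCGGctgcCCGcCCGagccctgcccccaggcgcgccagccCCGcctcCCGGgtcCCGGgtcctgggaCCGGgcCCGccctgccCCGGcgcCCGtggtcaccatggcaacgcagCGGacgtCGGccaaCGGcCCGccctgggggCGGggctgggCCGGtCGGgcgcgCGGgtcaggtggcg

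The SEC22B window held 6 CGG triplets, none adjacent to another on the same strand, and a GC content of 52.0%. SEC22A had 9 triplets, SEC22C 10, VAMP3 19 and SEC61A2 26. A window was matched for 76 of the 85 genes, with a median of 15 triplets and a median GC content of 64.8%. Only 4 of these genes had fewer triplets than SEC22B. Among 8270 tested genes with a window the median was also 15, and 12.1% had fewer triplets than SEC22B. At least 2 CGG in a row were present in 33 of the 76 genes (43.4%), against 41.7% of the tested genes and 24% of all 27305 promoters of that length. At least 3 in a row were found in 6 genes (7.89%), against 7.11% of tested genes and 4.20% of all promoters. The longest run, 5 in a row, was in STXBP5, a tomosyn that holds back SNARE assembly. A run of 4 stood in COPB1 and COPZ2 of the COPI coat, and a run of 3 in SEC16A, SEC24A and SEC23A-AS1. Within these windows the CGG content was thus close to that of expressed genes in general, with SEC22B at the low end. Sequence after the start site was not counted, and the compared genes entered with their first listed window.

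**Figure D1:**
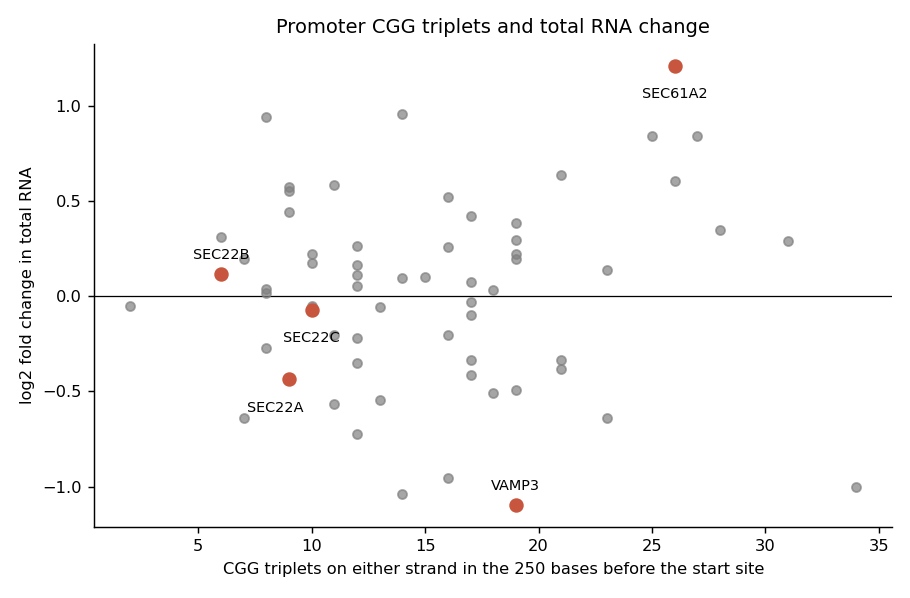
Each point is a tested gene with a promoter window, plotted by its number of CGG triplets (either strand, 250 bases before the start site) and by its log2 fold change in total RNA, siCGGBP1 over siControl. The 5 genes whose promoters are printed are in red, and SEC22B lies at the left with 6 triplets, close to 0 on the vertical axis.

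Across the 63 tested genes with a window, the Spearman correlation of CGG triplets with the log2 fold change in total RNA was 0.06, and it was 0.04 across the 8270 tested genes. These are correlations across genes measured in the same 6 libraries, and genes are not independent replicates. The log2 fold change was above 0 for 16 of the 26 genes with at least 2 CGG in a row and for 20 of the 37 without, with medians of 0.14 and 0.06.

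In total RNA, none of the 71 genes was called in edgeR's quasi-likelihood test (adjusted p below 0.05 with a change of more than 1 on the log2 scale), where 1.41% of the 10138 tested genes were. DESeq2 also called none, where it called 3.66% of all tested genes. It gave no adjusted p for 6 of the 71, which it therefore could not call. At an unadjusted p under 0.05, edgeR listed 6 of the 71 (8.45%), 4 higher and 2 lower in siCGGBP1, against 16.4% of all tested genes. DESeq2 also listed 6, against 17.9% of all tested genes. The 3 siCGGBP1 libraries did not overlap the 3 siControl libraries for 14 genes (19.7%), 9 higher and 5 lower, against 24.2% of all tested genes. The share of these genes that differed was therefore no larger than the background by any of these counts.

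The fold changes themselves were small. In bulk RNA, fewer cells with a transcript and less of it per cell cannot be told apart. Their median was 0.10 on the log2 scale against 0.00 over all tested genes, with 41 genes above 0 and 30 below and a range from -1.10 to 1.21. Of the 71, 48 lay within 0.5 of 0 on the log2 scale and 4 beyond 1. The 95% interval stayed within a 2-fold change in either direction for 34 genes (47.9%), against 33.8% of all tested genes. For the remaining genes a 2-fold difference lies inside the interval. The 6 libraries were not equally spread: siCGGBP1 replicate 3 was the highest or lowest of the 6 for 45 of the 71 genes and siControl replicate 3 for 34, where each other library was extreme for 14 to 17. Over all tested genes these shares were 51.3% and 46.5% for the 2 replicates numbered 3.

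**Figure D2:**
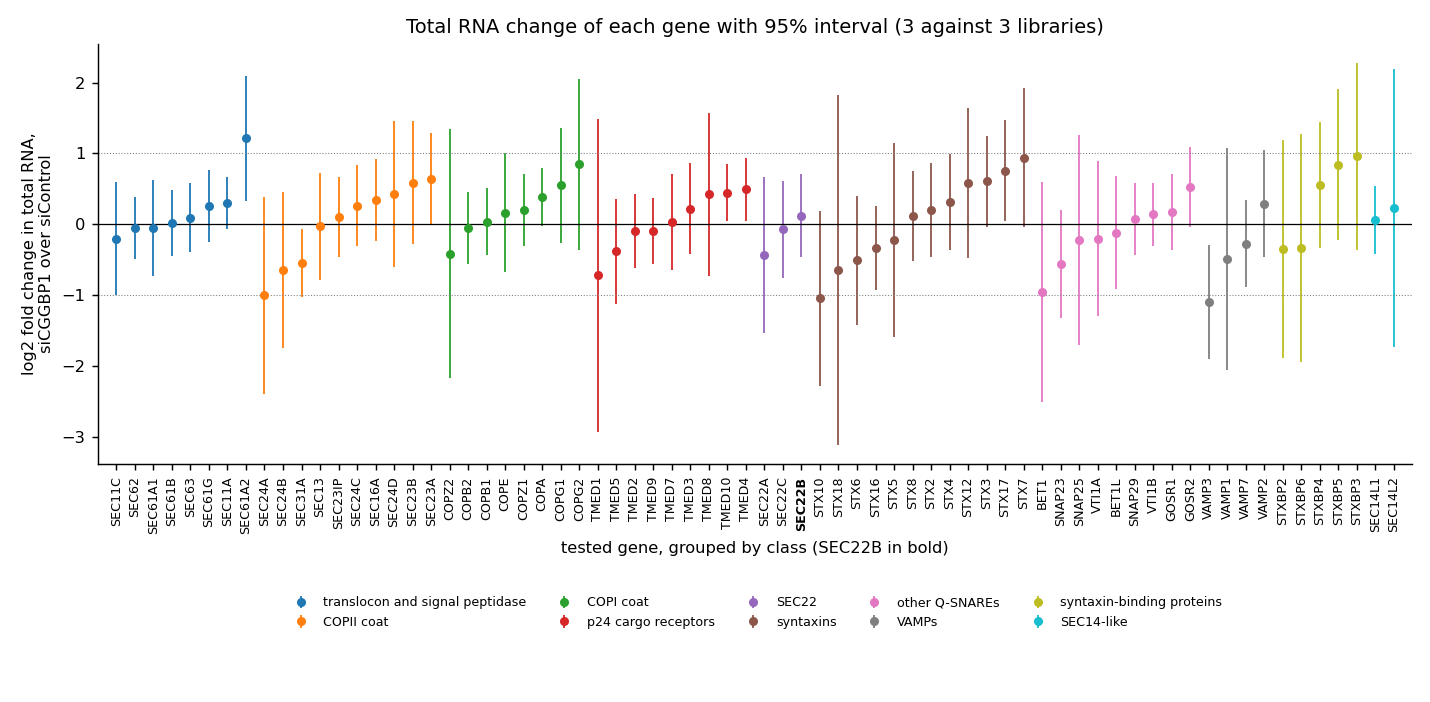
Points are log2 fold changes in total RNA (siCGGBP1 over siControl, 3 libraries each) of 70 of the 71 tested genes, grouped and coloured by class, and vertical lines are 95% intervals from edgeR. SEC61A2 at 1.21 and VAMP3 at -1.10 lie farthest from 0, and SEC22B at 0.12 lies near it.

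Of the translocon and signal peptidase, the 8 genes from channel to peptidase were all tested. SEC61A2, an alternative alpha subunit of the channel, had 151, 252 and 232 normalized reads in siControl and 457, 316 and 697 in siCGGBP1. The groups did not overlap, and the log2 fold change was 1.21 ± 0.41 (SE, edgeR adjusted p = 0.157). SEC61A1, the main alpha subunit, showed no such shift, with 1173, 1965 and 862 reads against 1532, 1435 and 895. SEC61A2 thus made up 11.4%, 11.4% and 21.2% of the reads of the SEC61A pair in siControl and 23.0%, 18% and 43.8% in siCGGBP1, shares that overlap. SEC11A, a catalytic subunit of the signal peptidase and the most abundant of the class, had 3179, 3469 and 3466 normalized reads against 4136, 3936 and 4365, a log2 fold change of 0.30 ± 0.17 (SE, edgeR adjusted p = 0.418). Its groups were apart, by a smaller difference than that of SEC61A2. SEC61B, SEC61G, SEC62, SEC63 and SEC11C had log2 fold changes between -0.20 and 0.26.

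Of the COPII coat, 10 of 11 genes were tested. SEC31A, which forms the outer cage with SEC13, had 1709, 1476 and 1659 normalized reads in siControl and 1313, 929 and 1075 in siCGGBP1. Every siCGGBP1 library was lower, at a log2 fold change of -0.55 ± 0.22 (SE, edgeR adjusted p = 0.247). SEC23A, the inner coat subunit that activates the GTPase SAR1, lay the other way, with 465, 481 and 298 reads against 640, 634 and 666 and a log2 fold change of 0.64 ± 0.30 (SE, edgeR adjusted p = 0.316). Its paralog SEC23B had 292, 304 and 586 reads against 515, 377 and 884, which overlap. Among the SEC24 cargo adaptors, SEC24A had 162, 111 and 247 reads against 81.7, 82.3 and 95.3, and SEC24C, the most abundant of them, 665, 599 and 527 against 740, 669 and 742. SEC24A was lower and SEC24C higher without overlap, so that SEC24A took 12.7%, 10.6% and 17.6% of SEC24 reads in siControl and 6.81%, 7.77% and 6.38% in siCGGBP1. The share of SEC24B was lower without overlap as well, at 20.4%, 15.8% and 27.0% against 14.5%, 10.5% and 15.5%. Its normalized reads, at 260, 166 and 379 against 174, 111 and 232, overlapped between groups. SEC13, which also serves the nuclear pore, was highest in replicate 3 of both groups, with 1015, 1172 and 1918 reads against 980, 890 and 2151.

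The 8 COPI genes were all tested, and 6 of them had a log2 fold change above 0. COPA, the alpha subunit and the most abundant, had 2040, 1823 and 1780 normalized reads in siControl and 2618, 2332 and 2413 in siCGGBP1, without overlap and at a log2 fold change of 0.38 ± 0.19 (SE, edgeR adjusted p = 0.337). COPZ1, the zeta subunit, had 1118, 1209 and 1637 reads against 1806, 1366 and 1379. Its groups overlapped, as did those of every COPI gene other than COPA.

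Among the p24 cargo receptors, 9 of 10 genes were tested. TMED10, the most abundant of them, had 3057, 3190 and 3994 normalized reads in siControl and 4282, 4444 and 5221 in siCGGBP1. TMED4 had 1237, 1231 and 1397 against 2035, 1652 and 1756. Both were higher in each siCGGBP1 library, at log2 fold changes of 0.45 ± 0.19 and 0.49 ± 0.21 (SE, edgeR adjusted p = 0.254 and 0.255). TMED9 did not share this, with 2301, 3594 and 3838 reads against 2999.5, 2818 and 3292 and a log2 fold change of -0.10 ± 0.22 (SE).

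Of the 15 syntaxins, 12 were tested, and 7 had a log2 fold change above 0. STX17, the syntaxin of autophagosomes, had 460, 353 and 243 normalized reads in siControl and 613, 609 and 565 in siCGGBP1, a log2 fold change of 0.76 ± 0.33 (SE, edgeR adjusted p = 0.273). STX10, which works at the trans-Golgi network, had 264, 262 and 480 against 196, 243 and 51.0, a log2 fold change of -1.04 ± 0.57 (SE, edgeR adjusted p = 0.395). Neither overlapped between groups, but the lowest siCGGBP1 value of STX10 came from replicate 3 alone, and without that library its log2 fold change was -0.61. STX16, also of the trans-Golgi network and the most abundant syntaxin in siControl, had 689, 849 and 1196 reads against 784, 714 and 667. STX12 of endosomes had 284, 271 and 86.3 against 327, 271 and 360, STX2 of the plasma membrane 468, 475 and 496 against 469, 457 and 722, and STX4, also of the plasma membrane, 610, 656 and 573 against 862, 972 and 451. The groups overlapped for these 3.

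The remaining Q-SNAREs include VTI1B, the most abundant of all 71 genes, with 3060, 4476 and 3992 normalized reads in siControl and 3731, 5142 and 3835 in siCGGBP1. Its log2 fold change of 0.14 ± 0.21 (SE) was within the spread between libraries. SNAP23, a Q-SNARE of the plasma membrane, had 518, 424 and 515 against 408, 363 and 216, lower in each siCGGBP1 library at a log2 fold change of -0.56 ± 0.35 (SE, edgeR adjusted p = 0.464). GOSR1, a Golgi SNARE, had 937, 1049 and 743 against 1173, 955 and 950, which overlap. Of the VAMPs, 4 of 7 were tested. VAMP3, the R-SNARE of recycling endosomes, had 615, 913 and 489 normalized reads in siControl and 339, 412 and 192 in siCGGBP1. It was the lowest of the 71 fold changes, -1.10 ± 0.37 on the log2 scale (SE, edgeR adjusted p = 0.159), while VAMP2, its close relative of regulated exocytosis, had 693, 347 and 457 against 746, 675 and 412. VAMP3 accounted for 47.0%, 72.5% and 51.7% of the reads of the pair in siControl and 31.3%, 37.9% and 31.8% in siCGGBP1.

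The syntaxin-binding proteins were low, and 6 of 7 were tested. STXBP3, the Munc18 protein that binds STX4, had 220, 179 and 39.2 normalized reads in siControl and 219, 270 and 363 in siCGGBP1, and STXBP5 had 206, 183 and 255 against 182, 291 and 680. Both overlapped between groups. SEC14L1, the one abundant SEC14-like gene, had 1332, 1344 and 1633 reads against 1787, 1379 and 1312.

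As a share of all reads, the 85 genes together took 0.513%, 0.528% and 0.553% of the siControl libraries and 0.576%, 0.577% and 0.605% of the siCGGBP1 libraries. The siCGGBP1 libraries were all higher, by 0.0547 percentage points on average (two-sided exact permutation test, p = 0.1, the smallest p that 3 against 3 allows). The siControl library without 4sU, at 0.630%, was above all of them and the one with 200 µM 4sU, at 0.559%, lay between the groups, so that the difference was no larger than that between siControl libraries at different 4sU concentrations. By class, the read share was higher in each siCGGBP1 library for the translocon and signal peptidase (0.133% ± 0.0035 with siControl and 0.147% ± 0.0104 with siCGGBP1, SD over 3 libraries), COPI (0.0627% ± 0.0061 and 0.0731% ± 0.0019), the p24 receptors (0.106% ± 0.0121 and 0.120% ± 0.0027), syntaxins (0.0442% ± 0.0035 and 0.0505% ± 0.00066) and syntaxin-binding proteins (0.0106% ± 0.0016 and 0.0140% ± 0.0016). Each of these 5 classes reached the smallest exact permutation p, 0.1, which became 0.22 after adjustment over the 11 classes. COPII, SEC22, the other Q-SNAREs, VAMPs and SEC14-like genes overlapped between groups, and VAMPs were the one tested class with a lower mean in siCGGBP1.

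**Figure D3:**
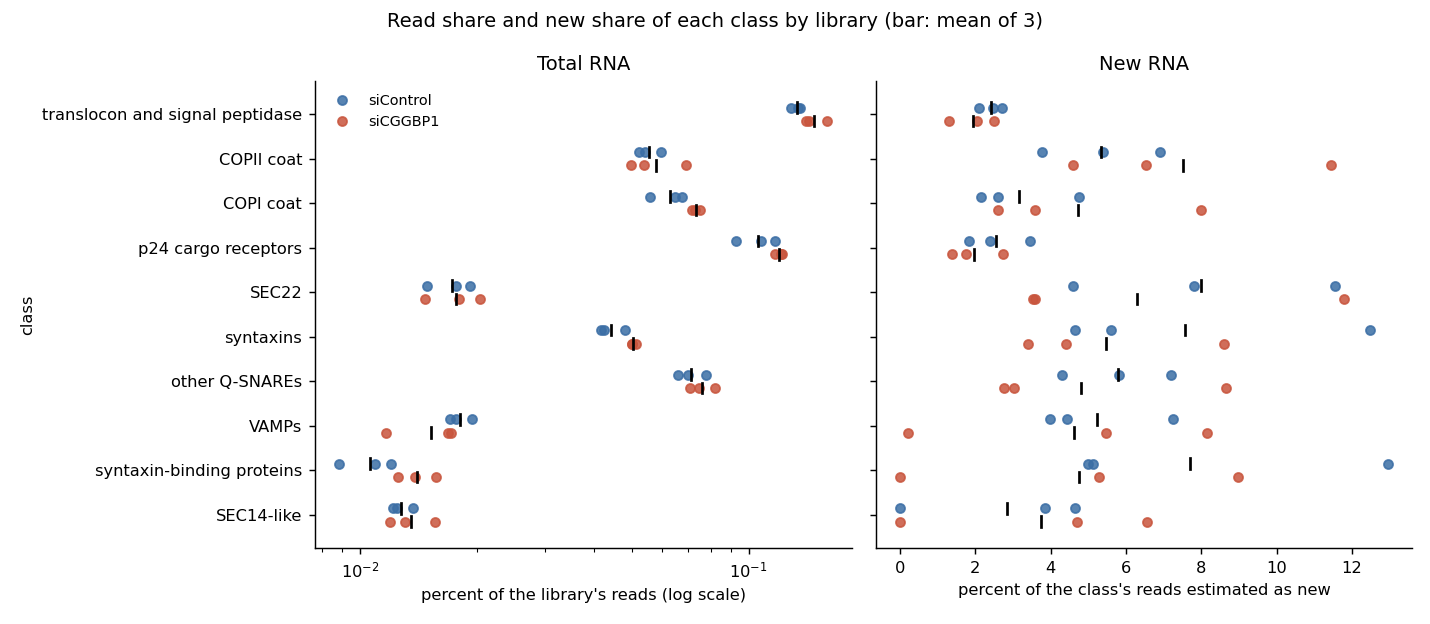
Points are libraries (blue siControl, red siCGGBP1), with the percent of each library's reads on a class at left (log axis) and the percent of the class's reads estimated as new at right, and black bars are means of 3. The classes differ from each other more than the groups do in total RNA, and the groups overlap in new RNA for every class.

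A list of 78 further genes of the same route was read beside them: SAR1, ARF and RAB GTPases, tethers of the TRAPP and COG complexes, KDEL receptors, lectins and others. It matched 78 measured entries, of which 77 were tested. COG8 was entered repeatedly and counts each time, so that not every listed gene was measured. MIA2 and NAPB were not tested. None of the 77 tested entries was called in total or in new RNA by edgeR. At an unadjusted p under 0.05, edgeR listed 2 higher and 8 lower in total RNA (13% of the 77, against 16.4% of all tested genes), and 1 higher and 2 lower in new RNA (3.9% against 3.15%). DESeq2 called 3 of them in total RNA, GORASP2, SAR1B and KDELR3 (adjusted p = 0.0176, 0.0389 and 0.0384), or 3.9% against 3.66% of all tested genes. In new RNA DESeq2 called none and gave 4 an unadjusted p under 0.05 (5.19% against 4.32%). These shares were close to those of all tested genes. GORASP2, a Golgi stacking protein, had 898, 1084 and 759 normalized reads in siControl and 484, 490 and 298 in siCGGBP1 (log2 fold change -1.11 ± 0.30, SE, edgeR adjusted p = 0.0863). ARF1, the GTPase that recruits COPI, had 4133, 4176 and 4501 against 3034, 2566 and 2793 (log2 fold change -0.61 ± 0.17, SE, edgeR adjusted p = 0.0985). SAR1B, the GTPase that starts COPII assembly, had 617, 518 and 538 against 274, 233 and 56.7 (log2 fold change -1.58 ± 0.50, SE, edgeR adjusted p = 0.133). KDELR3, a receptor that retrieves ER proteins, lay the other way with 446, 378 and 242 against 591, 625 and 1286 (log2 fold change 1.23 ± 0.37, SE, edgeR adjusted p = 0.115). These 4 were named after their values were seen, from the lowest edgeR p-values of the list. None overlapped between groups, which follows in part from that choice. TRAM1, with a lower p-value than KDELR3 and SAR1B, had a log2 fold change of -0.79 ± 0.23 (SE, edgeR adjusted p = 0.108). Among the mesenchymal markers, COL1A1, the main fibrillar collagen and a cargo of this route, rose from 8199, 6988 and 9820 normalized reads to 21258, 17258 and 23619 (log2 fold change 1.31 ± 0.18, SE, edgeR adjusted p = 0.00353), and SPARC, a secreted matrix protein, by 1.27 ± 0.19 on the log2 scale (SE, edgeR adjusted p = 0.00634). Their part in the values above was not tested.

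For newly synthesized RNA the data were far sparser. None of the 71 genes was called, by edgeR, DESeq2 or limma, where edgeR called 0.0493% of all tested genes, DESeq2 0.266% and limma none. DESeq2 gave no adjusted p for 33 of the 71, so that it could not call these whatever their values. At an unadjusted p under 0.05, edgeR listed 2 of them (2.82%, both lower), against 3.15% of tested genes. DESeq2 listed 8 of them (11.3%, 2 higher and 6 lower), against 4.32% of tested genes. Limma listed 4 (5.63%) with either 1 or 10 added to new reads, against 3.19% and 3.57% of tested genes. The groups did not overlap for 6 genes (8.45%, 2 higher and 4 lower), against 7.32% of tested genes. New reads were above 0 in all 6 libraries for 11 genes. They were 0 for 17, 13 and 39 genes in siControl and for 20, 18 and 48 in siCGGBP1, the replicates numbered 3 being the last of each. The median standard error of the log2 fold change was 2.92, against 0.34 in total RNA, and no gene's 95% interval stayed within a 2-fold change. Estimates far beyond 2-fold also missed the threshold, among them those of STX16 and SEC22B given further on.

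**Figure D4:**
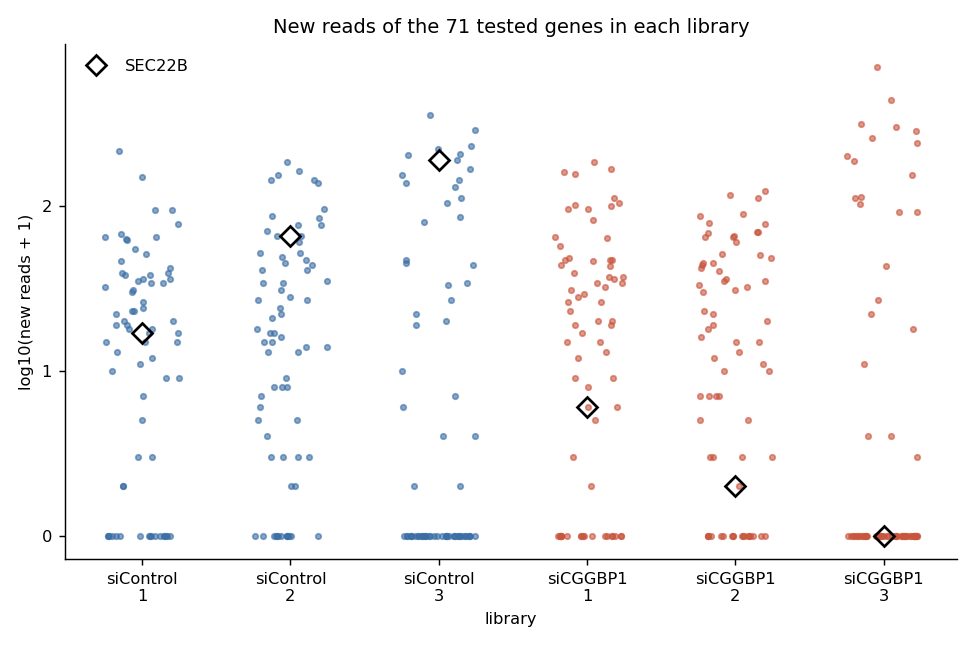
Points are the 71 tested genes in each library (blue siControl, red siCGGBP1), with new reads on a log10 scale after 1 was added, and the open diamond is SEC22B. Points at 0 are most frequent in the replicates numbered 3, and SEC22B goes from 16, 65 and 188 new reads (siControl) to 5, 1 and 0 (siCGGBP1).

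Over all 85 genes, 3.73%, 3.86% and 4.69% of reads were estimated as new in siControl and 4.34%, 2.96% and 4.29% in siCGGBP1. The groups overlapped (two-sided exact permutation test, p = 0.8). T-to-C conversions per 100 covered T, which need no model, were 0.189, 0.188 and 0.157 against 0.217, 0.181 and 0.189, with 0.0648 in the library without 4sU. Among the classes, new shares ranged from a mean of 2.42% for the translocon to 7.99% for SEC22 in siControl, and their groups overlapped for every class. COPII was the one named class whose conversions per 100 T did not overlap, at 0.172, 0.226 and 0.233 in siControl and 0.329, 0.291 and 0.441 in siCGGBP1 (two-sided exact permutation test, p = 0.1, the smallest possible, and 0.99 after adjustment over the 11 classes).

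Single libraries set some of these values. In siCGGBP1 replicate 3 all reads of SEC24B (282) and of STX12 (438) were estimated as new, as were 68.2% of the 441 reads of SEC22C, and in siControl replicate 3 the ratio of STX18 was 50.8%. No other tested gene of the 71 reached 50% in any of the 6 libraries. The SEC24B and SEC22C reads carried 604 and 813 conversions and those of STX12 carried 360, of which 1 read had at least 2.

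The 6 genes without overlap in new reads held 4 SNAREs, 1 SNARE regulator and 1 COPII partner. New reads of STX16 were 37, 95 and 356 with siControl against 0, 15 and 26 with siCGGBP1 (log2 fold change -3.74 ± 1.75, SE, edgeR adjusted p = 0.994), and without siControl replicate 3 the log2 fold change was -2.45. STXBP5 had 17, 2 and 111 against 0, 0 and 0, and VTI1A, a Q-SNARE of the trans-Golgi network, 45, 83 and 44 against 1, 6 and 0. SEC22B, described next, made the fourth. All 4 were lower in siCGGBP1. SEC23IP, which binds SEC23 at ER exit sites, had 0, 7 and 3 new reads against 33, 65 and 153 (log2 fold change 4.49 ± 2.76, SE, edgeR adjusted p = 0.994), and STX6, a Golgi and endosome syntaxin, 14, 0 and 21 against 27, 32 and 91. Conversion counts scaled to library size did not overlap, in the same direction, for 5 of the 6, all but SEC22B. New reads are estimated from these same conversions, so that this is not a separate measurement. The share of all tested genes without overlap in conversions was not counted. In siControl replicate 3, 0 reads of STX16 and 0 of STXBP5 carried at least 2 conversions. In siCGGBP1 replicate 3 such reads numbered 0 for SEC23IP and 58 for STX6. VTI1A and STX6 were named because their new reads did not overlap, after their values were seen.

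Other genes with low p-values in new RNA rested on few reads. New reads of STX2 were 38, 40 and 0 with siControl against 0 in each siCGGBP1 library, and TMED9 34, 27 and 0 against 0 in each. STXBP3 had 0, 1 and 0 against 36, 43 and 0, SEC23B 0 in each siControl library against 2, 12 and 0, and STX4 0 in each against 16, 0 and 0. STX12, at 18, 17 and 0 against 19, 11 and 438, differed through siCGGBP1 replicate 3 alone. Among the 32 genes with at least 500 reads in every siControl library, STX16, SEC13 and GOSR1 had the highest new shares in siControl and STX4, SEC24C and COPZ1 the lowest.

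SEC22B lies on chromosome 1, from 120150898 to 120176520 on the minus strand (GRCh38, GENCODE 44), and has near-identical pseudogene copies on the same chromosome that are not among the genes listed. Its read counts are fractional, and how reads that match several places were divided is not given in the sources used here, so that its level is uncertain to that extent. In total RNA it had 1361, 1016 and 1413 normalized reads in siControl and 1631, 896 and 1589 in siCGGBP1. The groups overlapped fully, at a log2 fold change of 0.12 ± 0.27 (SE, 95% interval -0.47 to 0.70, edgeR adjusted p = 0.882). It was the most abundant of its family and ranked 17th by level, 39th from the lowest by fold change and 51st by p-value among the 71.

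In newly synthesized RNA, the new reads of SEC22B were 16, 65 and 188 with siControl against 5, 1 and 0 with siCGGBP1. Every siCGGBP1 library was lower, at a log2 fold change of -5.27 ± 2.70 (SE, 95% interval -10.56 to 0.02, edgeR unadjusted p = 0.0509, adjusted p = 0.994). It ranked 3rd of the 71 by p-value, after STXBP5 and STX16, and 9th from the lowest by fold change. The new-to-total ratio was 1.40% (credible limits 0.86 to 2.34), 6.08% (4.79 to 7.74) and 13.3% (11.3 to 15.7) in siControl and 0.34% (0.29 to 1.16), 0.07% (0.06 to 0.87) and 0% (0.01 to 0.27) in siCGGBP1. The siControl replicates thus differed among themselves beyond their credible limits, and the lowest of them overlapped siCGGBP1 replicate 1 and the limit of replicate 2.

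The conversions behind these ratios gave a smaller difference. On SEC22B reads, 43.2, 111 and 196 conversions were counted with siControl against 64.5, 21.7 and 22.1 with siCGGBP1, or 0.0883, 0.264 and 0.321 per 100 covered T against 0.112, 0.0630 and 0.0308. Replicate 1 of siCGGBP1 was therefore above replicate 1 of siControl. The library without 4sU had 0.0297 per 100 T, at the level of siCGGBP1 replicate 3, and the siControl library with 200 µM had 0.809. Tested on conversion counts, the log2 fold change of SEC22B was -1.64 ± 1.34 (SE, edgeR unadjusted p = 0.223), closer to 0 than that of the estimated new reads. Reads with at least 2 conversions numbered 12, 42 and 0 in siControl and 2.5, 0.3 and 0 in siCGGBP1, so that the replicates numbered 3 added nothing to this measure although siControl replicate 3 had the highest ratio.

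**Figure D5:**
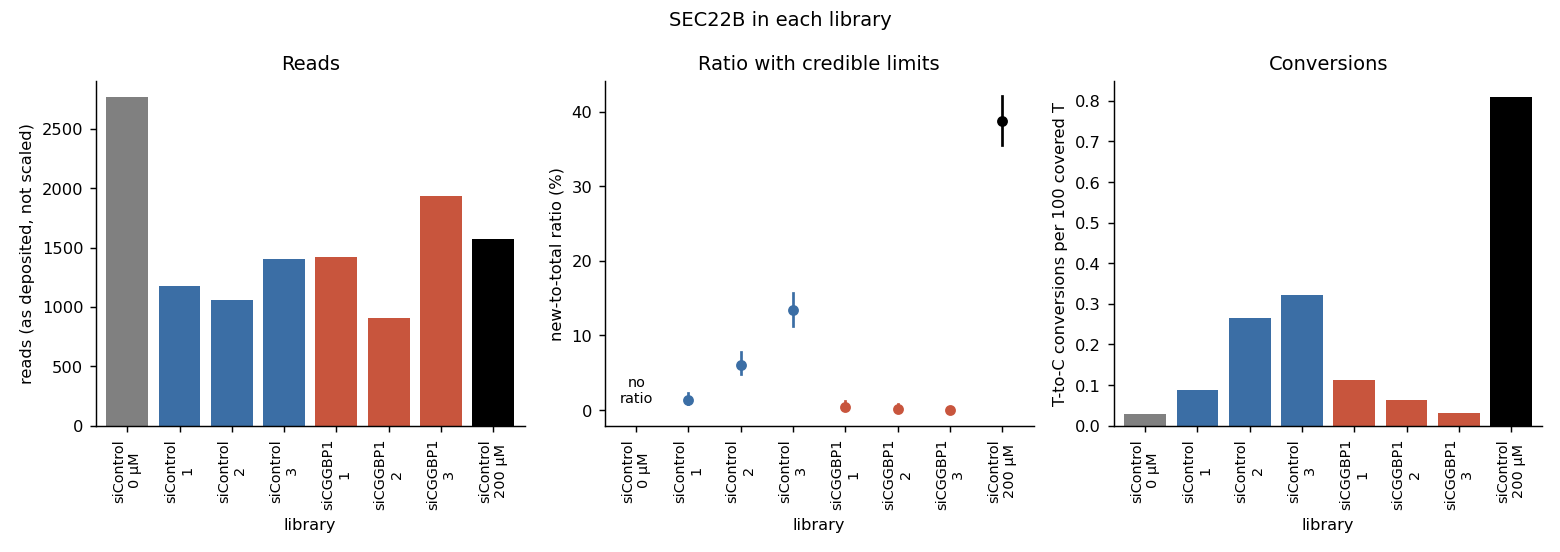
Bars at left are SEC22B reads as deposited, points in the middle are new-to-total ratios in percent with credible limits, and bars at right are T-to-C conversions per 100 covered T, for the siControl library without 4sU (grey), 3 siControl and 3 siCGGBP1 libraries at 75 µM, and the siControl library at 200 µM (black). Ratios are 1.40% to 13.3% in siControl and 0% to 0.34% in siCGGBP1, while conversions of siCGGBP1 replicate 1 exceed those of siControl replicate 1.

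Its relatives showed no shared direction. SEC22A had 193, 182 and 280 normalized reads in siControl and 206, 131 and 146 in siCGGBP1, with 0, 2 and 79 new reads against 56, 14 and 0. SEC22C had 521, 527 and 623 normalized reads against 541, 687 and 363, with 66, 75 and 0 new reads against 14, 47 and 301. As a share of the reads of the SEC22 family, SEC22A had 9.31%, 10.5% and 12.1% in siControl and 8.68%, 7.64% and 6.97% in siCGGBP1, lower in each library. Normalized reads overlapped for both, at log2 fold changes of -0.44 ± 0.51 and -0.07 ± 0.31 (SE), and so did new reads. The partners of SEC22B in fusion differed from it as well. GOSR2 had 787, 639 and 610 normalized reads in siControl and 861, 888 and 1175 in siCGGBP1, higher in each library at a log2 fold change of 0.52 ± 0.26 (SE, edgeR adjusted p = 0.342). STX5 had 324, 236 and 94.4 against 207, 286 and 68.6. BET1 had 298, 195 and 428 against 222, 235 and 19.7, and STX18 145, 169 and 167 against 136, 173 and 0. For BET1 and STX18 the low group mean came from siCGGBP1 replicate 3, and without that library their log2 fold changes were -0.42 and -0.05 in place of -0.95 and -0.64. New reads of the partners were 62, 20 and 137 against 155, 59 and 0 for GOSR2, 0, 2 and 0 against 0, 0 and 3 for STX5, 33, 0 and 0 against 0 in each for BET1, and 35, 34 and 85 against 18, 34 and 0 for STX18. No partner had the pattern of SEC22B, with more new reads in each siControl library than in any siCGGBP1 library.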

How the data were processed

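The comparison covers 3 siControl and 3 siCGGBP1 libraries of U-2OS Tet-ON cells at 75 µM 4sU. Ribosomal reads were discarded with Bowtie2 2.3.0 and the rest mapped to GRCh38 with STAR 2.5.3a, per the submitters' processing notes. GRAND-SLAM then gave each gene's reads, covered T positions, T-to-C conversions and reads that carry 2 or more of them, and the authors deposited these expected counts without scaling. New-to-total ratios were deposited by the authors as a fraction per gene and library. The paper's methods do not mention molecular identifiers, and the credible limits of each library's ratio cover counting error only. The 95% intervals of fold changes come from the edgeR fits and include the spread between libraries. Credible limits are the deposited quantiles.

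A gene was tested if 3 or more of the 6 libraries had 100 or more reads. Expected counts were rounded, and new reads were reads times the maximum a posteriori ratio, rounded. Total and new reads each entered edgeR 4.0.16 (quasi-likelihood, TMM factors from total reads, Benjamini-Hochberg over 10138 genes, R 4.3.3). Normalized reads are reads divided by the scaled TMM library size. The standard error is the log2 fold change, without its sign, over the square root of F. Shares were compared by exact permutation. The edgeR fit of total reads was tested on simulated data with planted changes larger than any total RNA change of the 71 tested genes. How well it finds changes of their size was therefore not tested. Alternatives were DESeq2 1.42.0, limma 3.58.1 on log2(new reads + 1 or + 10), other filters, thresholds and ratios, a replicate block and left-out libraries.

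Classes follow the symbols. Values of 2 of the 85 genes are not reported here, while sums and counts include them. Named genes were the SEC22 family, 4 SNARE partners of SEC22B, the 5 lowest p-values per direction and fit, the most abundant gene of each class, and the 3 highest and 3 lowest new shares in siControl. Members and lists were chosen with earlier results of these data known. CGG was counted in RefSeq promoters of GRCh38.p14, with 1 window per gene, for members the one nearest the GENCODE 44 start. Paralogs and further genes were named after their values were seen. Read shares were taken within more paralog families than are named, and most of these shares overlapped between groups. The 200 µM and 0 µM libraries entered no fit.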

Additional observations from a re-analysis of the deposited data

Results flagged for a closer look

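The siControl library with 200 µM 4sU entered no comparison. Over the 85 genes its rate of conversions was 0.286 per 100 T positions covered, compared with 0.0648 in the siControl library without 4sU and 0.157 to 0.217 in the 6 libraries at 75 µM. Over all genes its rate was 0.218, inside the 0.183 to 0.263 of the 6 libraries at 75 µM. Syntaxins went the other way, with 0.0988 at 200 µM, below their 0.198 to 0.326 at 75 µM. For SEC22B the rate was 0.809 compared with 0.0297 without 4sU, with a new-to-total ratio of 38.7% (credible limits 35.5 to 42.05). These are single libraries without replicates, and the difference between concentrations was not tested.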

How the results depend on the processing

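None of the 71 genes was called in total RNA or in new RNA under any alternative: DESeq2's Wald test, DESeq2 size factors, no filter on low counts, 100 reads in all 6 libraries, an adjusted p under 0.1, no minimum fold, leaving out any library or replicate 3 of both groups, and for new RNA also the posterior mean ratio, conversion counts, TMM of new reads and limma. DESeq2's Wald test could not call 6 of them in total RNA and 33 in new RNA, for lack of an adjusted p. Of the 34 named genes, 25 kept the sign of their total RNA log2 fold change under all 12 alternatives run for them, and the lowest adjusted p of any was 0.0716 (VAMP3, without replicate 3 of both groups). The sign of genes near 0 turned when single libraries were left out, with log2 fold changes of -0.54 to 0.29 for SEC13, -0.094 to 0.16 for SEC14L1, -0.024 to 0.34 for SEC22B, -0.31 to 0.15 for SEC22C, -0.031 to 0.16 for SEC23IP, -0.043 to 0.30 for STX2, -0.67 to 0.19 for STX5, -0.29 to 0.043 for TMED9 and -0.032 to 0.26 for VTI1B. Without replicate 3 of both groups it also turned for SEC22C (0.24) and STX2 (-0.017). The new RNA log2 fold change of SEC22B stayed below 0, from -7.23 to -4.11 when single libraries were left out, -3.54 without replicate 3 of both groups, -4.07 with the posterior mean ratio and -2.63 with limma and 10 added. DESeq2 gave -5.37 for it (adjusted p = 0.218). When single libraries were left out, the new RNA log2 fold change ranged from -4.41 to -2.45 for STX16 and from 3.93 to 5.52 for SEC23IP.

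The difference in the new share of all 85 genes, siCGGBP1 minus siControl, was -0.471 to 0.218 percentage points when single libraries were left out, and 0.0177 in conversions per 100 covered T. Class differences in read share that turned ranged from -0.00346 to 0.00615 percentage points for COPII, -0.000924 to 0.00193 for SEC22 and -0.000291 to 0.00151 for SEC14-like genes. Those in new share ranged from -0.0631 to 2.63 for COPI, -4.43 to 0.0966 for SEC22, -3.68 to 0.34 for syntaxins, -2.88 to 0.0656 for other Q-SNAREs, -2.40 to 1.58 for VAMPs and -0.503 to 2.79 for SEC14-like genes. The cause of these turns was not tested.

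Deviations of libraries with the same replicate number correlated at 0.11, 0.18 and 0.09 in total RNA, and each library correlated best with its own number, a hint from the data only. With the replicate block 0 of the 71 genes were called in either fit, and SEC22B had log2 fold changes of 0.08 in total and -5.61 in new RNA. New RNA was measured less precisely than total RNA, with a median standard error of 2.92 against 0.34 on the log2 scale and new reads in all 6 libraries for 11 of the 71 genes. Genes at 0 new reads were most frequent in the replicates numbered 3, which were not the shallowest libraries (12008067 and 14221516 reads, against 10127519 to 12093729 in the other 4).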
